A study of Caenorhabditis elegans with 9 samples.

Results

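Cysteine cathepsins are papain-family proteases, made as inactive proenzymes and active mainly in lysosomes or after secretion. In the Caenorhabditis elegans intestine, cathepsin B-like enzymes digest food protein, while cathepsin L- and Z-like enzymes also act in the epidermis, where they are needed for molting. The genes described here are the cathepsin B-like cpr-1, cpr-3, cpr-4, cpr-5 and cpr-6, the cathepsin L-like cpl-1 and the cathepsin Z-like cpz-1, taken by their symbols in the transcript names. All 7 were found among 13246 genes listed in at least 1 library, and all 7 were among the 8035 tested. They were chosen by their fold changes, with results of these data known: several were far lower in global than in hypodermal depletion of RPOA-2. The difference between the depletions is therefore given as a description, with no test.

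The study removed RPOA-2, a core subunit of RNA polymerase I, which transcribes ribosomal RNA, by a degron that TIR1 and auxin (IAA) activate. All 4 groups carried degron::GFP::rpoa-2: controls without auxin at 18 h (n = 2) and 24 h (n = 2), col-10p::TIR1 animals on 1 mM IAA at 24 h (hypodermal depletion, n = 3) and eft-3p::TIR1 animals on 1 mM IAA at 24 h (global depletion, n = 2). The col-10 promoter drives TIR1 in the hypodermis (epidermis) and the eft-3 promoter in most tissues. Controls had neither TIR1 nor auxin, so effects of these agents cannot be told apart from those of the depletion. The sampled tissue is given as whole worm, the titles name embryos grown at 16 °C, and the stage at harvest is not stated.

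Libraries totalled 166455 to 506659 counts in the 4 controls and 781648 to 2134185 in the 5 depleted libraries, so values in the controls carry the larger counting error. Counts below 3 are not listed in the table, and 3 counts stood for 18.0 CPM, counts scaled to a common library size, in the shallowest library and 1.41 CPM in the deepest. The labels do not tie the libraries of a group to separate cultures. The p-values therefore measure the spread between these libraries alone, which may be technical. All 10 markers of body wall muscle and all 10 of neurons were listed in every group, and markers of intestine, hypodermis and pharynx were listed apart from a few weak genes. Adjusted p-values are from edgeR's quasi-likelihood test over all 8035 genes, and a gene passed when its adjusted p was below 0.05. Fold changes are fitted values on the log2 scale with a standard error (SE), and levels are CPM with edgeR's TMM scaling.

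Of the 7 genes, 5 lie on chromosome V in WBcel235: cpr-5 (1132598 to 1134036), cpr-4 (6614674 to 6615845), cpr-1 (11975515 to 11976756), cpr-3 (15296853 to 15298700) and cpl-1 (16592572 to 16595346). The gene cpr-6 is on chromosome X (6607203 to 6609045) and cpz-1 on chromosome I (2686640 to 2689493). None overlaps another protein-coding gene in the Ensembl annotation of the same build, although cpr-1 ends 20 bases before mif-2. Neither the counting of strand nor the handling of reads shared between similar genes is given in the sources used here, so values of single cpr genes are uncertain to that extent.

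In global depletion the cathepsins fell together, apart from cpr-3. Of the 7 genes, 6 fell against the 24 h controls and none rose, where 5.02% of all tested genes fell and 3.43% rose. The median of the 7 was -2.17 on the log2 scale and that of all tested genes 0.01. The global libraries also entered the choice of these genes, so the calls are not independent of it. In whole animals, fewer cells of a type and less RNA per cell cannot be told apart.

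The gene cpr-4, whose product is a secreted cathepsin B-like protease of the gut, stood at 86.0 and 87.8 CPM under global depletion. It reached 752, 829 and 1040 CPM under hypodermal depletion, compared with 688 and 622 CPM for controls at 24 h and 508 and 526 CPM for those at 18 h. Both global libraries lay below every other library, and the 3 hypodermal libraries lay above all controls. Against the 24 h controls cpr-4 was 7.52-fold lower in global depletion (log2 fold change -2.91, SE 0.24, edgeR adjusted p = 1.39e-12).

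The gut protease gene cpr-1 followed nearly the same course. Its level under global depletion was 94.2 and 114.5 CPM, and under hypodermal depletion 783, 873 and 1127 CPM. Controls gave 774 and 558 CPM at 24 h and 483 and 767 CPM at 18 h. Global libraries again lay below all others, and the hypodermal libraries lay just above the higher 24 h control. The fitted fall in global depletion was 6.35-fold (log2 fold change -2.67, SE 0.26, edgeR adjusted p = 5.63e-11).

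For cpr-5, another cathepsin B-like gene expressed in the gut, controls differed by age, with 207 and 278 CPM at 18 h but 818 and 598 CPM at 24 h. Hypodermal depletion gave 700, 683 and 935 CPM, and global depletion 169 and 143 CPM. The hypodermal libraries overlapped the 24 h controls, while the global libraries lay below both control times. The fall in global depletion against the 24 h controls was 4.51-fold (-2.17, SE 0.24, edgeR adjusted p = 2.65e-09).

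Levels of cpr-6, a cathepsin B homologue, were scattered at 18 h, with 251.5 and 60.4 CPM. By 24 h the controls were close together, at 366 and 328 CPM. Hypodermal depletion gave 350, 367 and 436 CPM, and global depletion 82.9 and 49.1 CPM. Global libraries lay below the 24 h controls but overlapped the 18 h controls. Against the 24 h controls cpr-6 fell 5.21-fold (-2.38, SE 0.30, edgeR adjusted p = 1.02e-07).

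The gene cpl-1 encodes the cathepsin L-like enzyme that embryos need for yolk processing and that acts in the epidermis at molting. Hypodermal depletion gave 603, 742 and 746 CPM, while global depletion gave 145.5 and 157 CPM. Controls read 248 and 423 CPM at 24 h, after 330 and 127 CPM at 18 h. Hypodermal libraries were thus above, and global libraries below, both 24 h controls, whose own values differed by more than the hypodermal libraries did among themselves. In global depletion it fell 2.25-fold (-1.17, SE 0.27, edgeR adjusted p = 0.00238), the smallest of the 6 falls. That call was lost without 24 h control replicate 2 (-0.76, adjusted p = 0.188) and in thinned libraries (adjusted p = 0.0895).

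The gene cpz-1, the cathepsin Z-like protease of the epidermis needed for molting, was lower than the 24 h controls in both depletions by its library values. Global depletion gave 36.2 and 25.8 CPM and hypodermal depletion 61.2, 91.1 and 64.7 CPM. Controls read 108 and 163 CPM at 24 h and 103.6 and 54.4 CPM at 18 h. Here both depletions lay below the 24 h controls without overlap. The global fall was 4.41-fold (-2.14, SE 0.35, edgeR adjusted p = 1.76e-05).

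The cathepsin B-like cpr-3, another gut protease gene and one with few counts, read 27.9 and 50.8 CPM under global and 15.4, 28.1 and 6.47 CPM under hypodermal depletion. Controls gave 22.3 and 24.2 CPM at 24 h, while at 18 h 1 library gave 39.5 CPM and the other did not list it. Its counts ran from 5 to 59 where it was listed, and both global libraries lay above the 24 h controls. In global depletion its estimate was positive and did not pass (0.74, SE 0.59, edgeR adjusted p = 0.512).

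**Figure D1:**
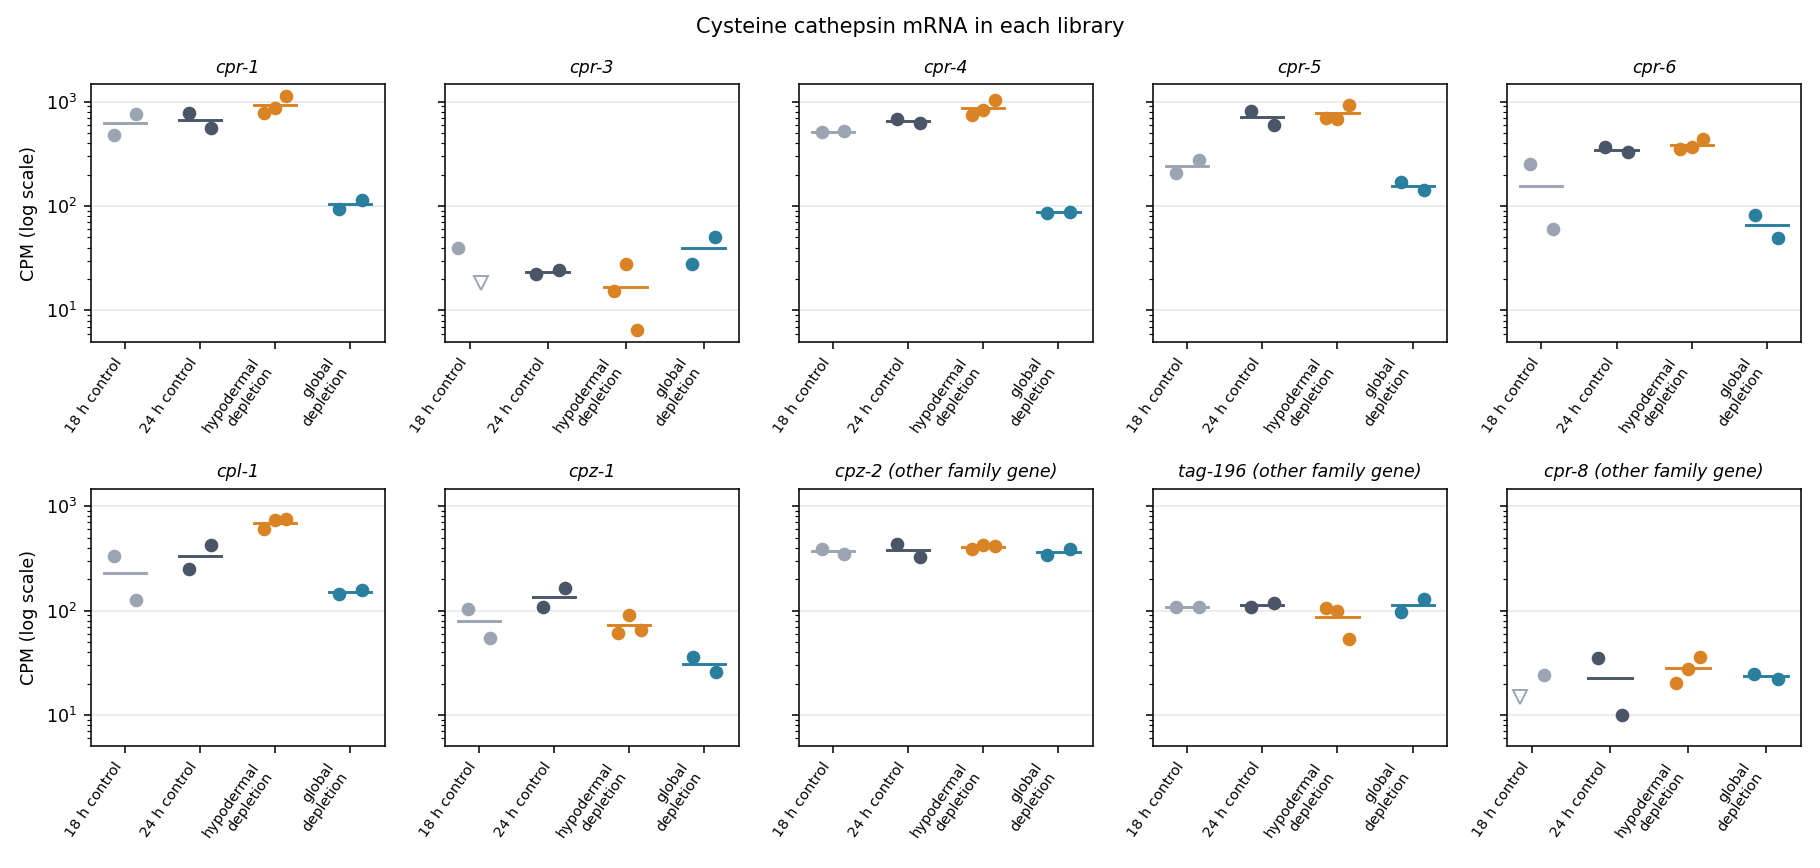
Levels in CPM (log scale) of the 7 cathepsin genes and 3 further family genes in each library of the 4 groups. Points are libraries, bars are group means where all libraries list the gene, and open triangles mark 3 counts in a library that does not list it; cpr-4 is at 86.0 and 87.8 CPM in the global libraries and at 508 CPM or above in all others.

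The sum of the 7 genes describes their level as a set. Their counts made up 0.0656% and 0.0672% of the library under global depletion and 0.318%, 0.355% and 0.430% under hypodermal depletion. Controls had 0.293% and 0.266% at 24 h and 0.197% and 0.180% at 18 h. Both global libraries were below all controls, and the 3 hypodermal libraries were above them. The genes were chosen by the difference between the depletions, so this order was in part set by the choice. The genes cpr-1, cpr-4 and cpr-5 together held 65.5% to 75.4% of the summed CPM in the 24 h controls, 66.0% to 71.2% in hypodermal depletion and 54.4% and 55% under global depletion.

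Against the 24 h controls most of the 7 genes did not pass in hypodermal depletion. With 2 controls, that does not show that they were unchanged. Of the 7 genes, cpl-1 alone passed, and it rose (1.66% of all tested genes rose). None fell, where 3.41% of tested genes did. The hypodermal libraries also entered the choice of these genes, so these calls are not independent of it either. The rise of cpl-1 was 2.05-fold (log2 fold change 1.03, SE 0.24, edgeR adjusted p = 0.00498). It did not hold without 24 h control replicate 1 (0.64, adjusted p = 0.296) or with the replicate number as a block (0.99, adjusted p = 0.0515).

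The gut genes cpr-1 (0.48, SE 0.22, edgeR adjusted p = 0.221) and cpr-4 (0.41, SE 0.20, adjusted p = 0.263) had positive estimates that did not pass, although neither gene's hypodermal libraries overlapped the controls. Closer to no difference were cpr-5 (0.13, SE 0.21, adjusted p = 0.823) and cpr-6 (0.15, SE 0.26, adjusted p = 0.838). For cpz-1 the estimate was -0.93 (SE 0.30) and its adjusted p of 0.0588 lay just outside the threshold. It passed in 6 of 21 alternative settings, at adjusted p from 0.028. For cpr-3 the estimate was -0.41 (SE 0.58, adjusted p = 0.793). The median of the 7 was 0.15, beside 0.03 for all tested genes.

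**Figure D2:**
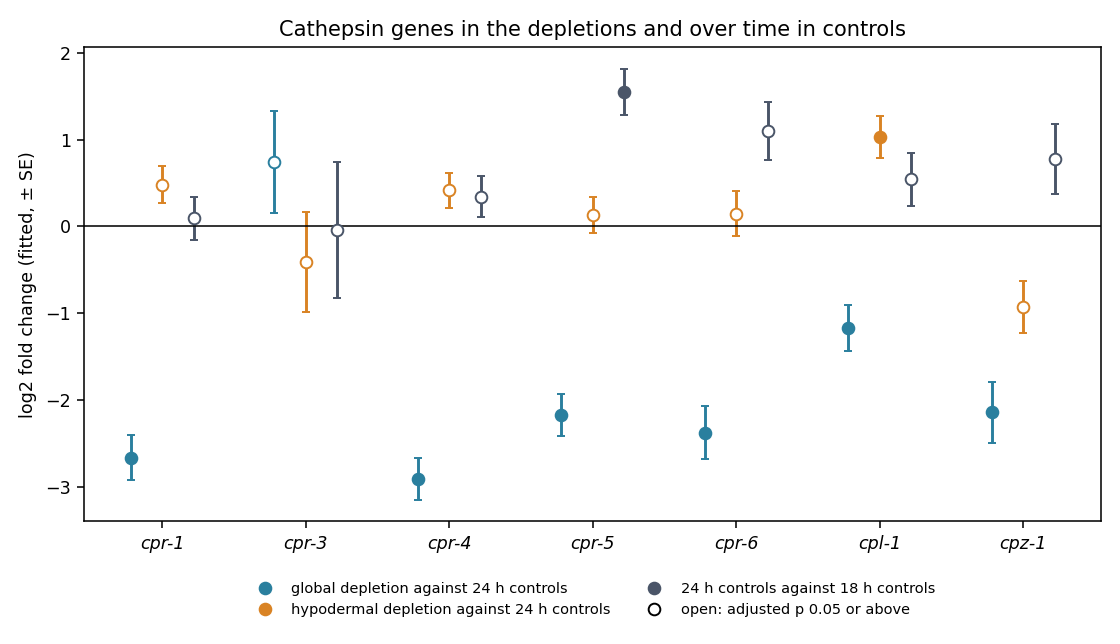
Fitted log2 fold changes (vertical axis, bars ± SE) of the 7 genes in global depletion and hypodermal depletion against the 24 h controls and in the 24 h against the 18 h controls; filled points passed edgeR's test and open points did not. Global depletion gives 6 falls from -1.17 to -2.91, cpl-1 is the 1 gene that rose in hypodermal depletion, and cpr-5 is the 1 gene that rose with time.

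The contrast by which these genes were chosen, global against hypodermal depletion, is given without a test. Fitted log2 differences were -3.32 (SE 0.23) for cpr-4, -3.15 (SE 0.24) for cpr-1, -2.53 (SE 0.28) for cpr-6, -2.30 (SE 0.22) for cpr-5, -2.20 (SE 0.25) for cpl-1 and -1.22 (SE 0.31) for cpz-1. Only cpr-3 among the 7 had a positive difference, of 1.15 (SE 0.46), and its hypodermal and global libraries overlapped. Beside these 6 negative values and 1 positive value stand 2.96% of all tested genes called lower and 1.42% called higher in that contrast, from which nothing is read here. The cpl-1 difference joins a fall in 1 depletion to a rise in the other, whereas that of cpz-1 separates a deeper from a shallower difference of the same sign.

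Undepleted animals allow a comparison that the choice of genes did not use. From 18 h to 24 h, 1 of the 7 genes rose, cpr-5, where 0.933% of all tested genes rose, and none fell (2.10% of tested genes fell). Its rise was 2.93-fold (log2 fold change 1.55, SE 0.27, edgeR adjusted p = 0.000225), and it passed in all 20 alternative settings. For cpr-6 the estimate was 1.1 (SE 0.34, adjusted p = 0.0608), which passed in 7 of 20 settings. Without replicate 1 of the 18 h controls, both cpr-6 (2.57, adjusted p = 0.000434) and cpl-1 (1.48, adjusted p = 0.0365) passed.

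The remaining genes did not pass over time. These were cpz-1 (0.77, SE 0.40, edgeR adjusted p = 0.329), cpl-1 (0.54, SE 0.30, adjusted p = 0.366), cpr-4 (0.34, SE 0.24, adjusted p = 0.488), cpr-1 (0.09, SE 0.25, adjusted p = 0.897) and cpr-3 (-0.04, SE 0.78, adjusted p = 0.984). The gut genes with the largest global falls, cpr-4 and cpr-1, thus had small estimates over time.

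Set against the 18 h controls, which were younger than the depleted animals, global depletion gave a different split. In such a comparison age and depletion cannot be told apart. Here 4 of the 7 genes fell (8.69% of tested genes fell) and none rose (5.99%). The falls of cpr-1 (-2.57, SE 0.27, edgeR adjusted p = 5.78e-10) and cpr-4 (-2.57, SE 0.25, adjusted p = 1.49e-10) were nearly as large as against the 24 h controls. For cpr-5 the estimate was -0.63 (SE 0.27, adjusted p = 0.12) and for cpl-1 -0.63 (SE 0.30, adjusted p = 0.163), and neither passed. The comparisons share the global libraries, so their values are set side by side and not correlated.

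The other 2 falls against 18 h, of cpr-6 (-1.28, SE 0.36, edgeR adjusted p = 0.00977) and cpz-1 (-1.37, SE 0.43, adjusted p = 0.0249), depended on single libraries. Both calls were lost without 18 h control replicate 1, where cpr-6 turned to 0.19 (adjusted p = 0.903) and cpz-1 to -0.75 (adjusted p = 0.568). They were also lost without global replicate 2 (-0.90, adjusted p = 0.147, and -1.09, adjusted p = 0.173).

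Hypodermal depletion against the 18 h controls gave 4 rises among the 7 genes (5.45% of tested genes rose) and no fall (7.63%). These were cpr-5 (1.68, SE 0.25, edgeR adjusted p = 2.59e-06), cpl-1 (1.57, SE 0.28, adjusted p = 4.43e-05), cpr-6 (1.25, SE 0.31, adjusted p = 0.0041) and cpr-4 (0.75, SE 0.22, adjusted p = 0.014). The cpr-4 call was lost without replicate 1 (0.78, adjusted p = 0.111) or replicate 2 (0.85, adjusted p = 0.061) of the 18 h controls, and with the replicate block (0.61, adjusted p = 0.0552). Without replicate 2 of those controls cpr-6 did not pass (0.67, adjusted p = 0.218), and without replicate 1 it rose by 2.72. Leaving out replicate 1 also raised the cpl-1 estimate to 2.51. For cpr-1 (0.57, SE 0.23, adjusted p = 0.0882), cpz-1 (-0.15, SE 0.38, adjusted p = 0.831) and cpr-3 (-0.45, SE 0.71, adjusted p = 0.719) the test was not passed. Calls of either depletion against the 18 h controls rest on libraries that entered the choice of genes. They are not independent of it.

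Levels of different genes were compared per kilobase of coding sequence (CPM per kb). In the 24 h controls cpr-5 (686 ± 151, SD, n = 2), cpr-1 (674 ± 155) and cpr-4 (652 ± 46.1) led and did not differ beyond their spread. The next pair, cpl-1 (332, with its libraries as far apart as given above) and cpr-6 (305 ± 23.6), did not differ beyond it either, followed by cpz-1 (148 ± 42.2) and cpr-3 (20.9 ± 1.19).

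In hypodermal depletion the order per kb was cpr-1 (940 ± 180, SD, n = 3), cpr-4 (869 ± 148), cpr-5 (749 ± 136) and cpl-1 (690 ± 80.7), each within the spread of its neighbour. Lower stood cpr-6 (338 ± 40.2), cpz-1 (78.8 ± 17.8) and cpr-3 (15 ± 9.81). In global depletion cpr-5 (151 ± 17.8, n = 2) and cpl-1 (149.5 ± 7.81) were level at the top, above cpr-1 (105.7 ± 14.5) and cpr-4 (86.4 ± 1.31). Then came cpr-6 (58.1 ± 21.1), cpr-3 (35.4 ± 14.6) and cpz-1 (33.8 ± 7.98). The libraries of cpr-6 overlapped those of cpr-3, and those of cpr-3 overlapped those of cpz-1. The gap between cpr-3 and the gut genes cpr-1 and cpr-4 was thus far narrower in global depletion than in the 24 h controls.

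At 18 h the order per kb was cpr-1 (633 ± 203, SD, n = 2), cpr-4 (514 ± 12.4), cpr-5 (235 ± 48.5), cpl-1 (226 ± 142), cpr-6 (137 ± 118.9) and cpz-1 (86.0 ± 37.9). Among these, cpr-4 and cpr-5 were the neighbours that stood clearly apart.

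Ratios of counts within a library do not depend on the scaling between libraries. They are given with exact binomial 95% intervals that cover counting error only. The ratio of cpr-1 to cpr-4 was 0.951 (0.714 to 1.27) and 1.46 (1.1 to 1.94) at 18 h and 1.12 (0.933 to 1.36) and 0.896 (0.759 to 1.06) in the 24 h controls. It was 1.04, 1.05 and 1.08 in hypodermal depletion and 1.1 (0.844 to 1.43) and 1.30 (1.00 to 1.70) in global depletion. The interval lay above 1 in 18 h control replicate 2 and began at about 1 in global replicate 2, while the other 7 spanned 1. The level of both genes relative to the library differed by several-fold between groups.

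Relative to cpr-4, cpr-5 shifted between groups. The ratio of cpr-5 to cpr-4 was 0.408 (0.278 to 0.589) and 0.529 (0.362 to 0.764) at 18 h and 1.19 (0.989 to 1.43) and 0.961 (0.817 to 1.13) in controls of 24 h. Hypodermal depletion gave 0.931, 0.825 and 0.899, and global depletion 1.96 (1.56 to 2.48) and 1.63 (1.26 to 2.10). The ratios at 18 h and in global depletion overlapped those of no other group. Their intervals did in part: 18 h control replicate 2 met hypodermal replicate 2 (0.758 to 0.897), and global replicate 2 met 24 h control replicate 1.

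The ratio of cpl-1 to cpr-4 was likewise highest in global depletion, at 1.69 (1.34 to 2.15) and 1.78 (1.39 to 2.30). Hypodermal depletion gave 0.802, 0.896 and 0.717. Controls gave 0.361 (0.275 to 0.470) and 0.680 (0.568 to 0.812) at 24 h and 0.650 (0.471 to 0.893) and 0.241 (0.142 to 0.392) at 18 h. The control libraries differed from each other in this ratio by more than counting error.

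**Figure D3:**
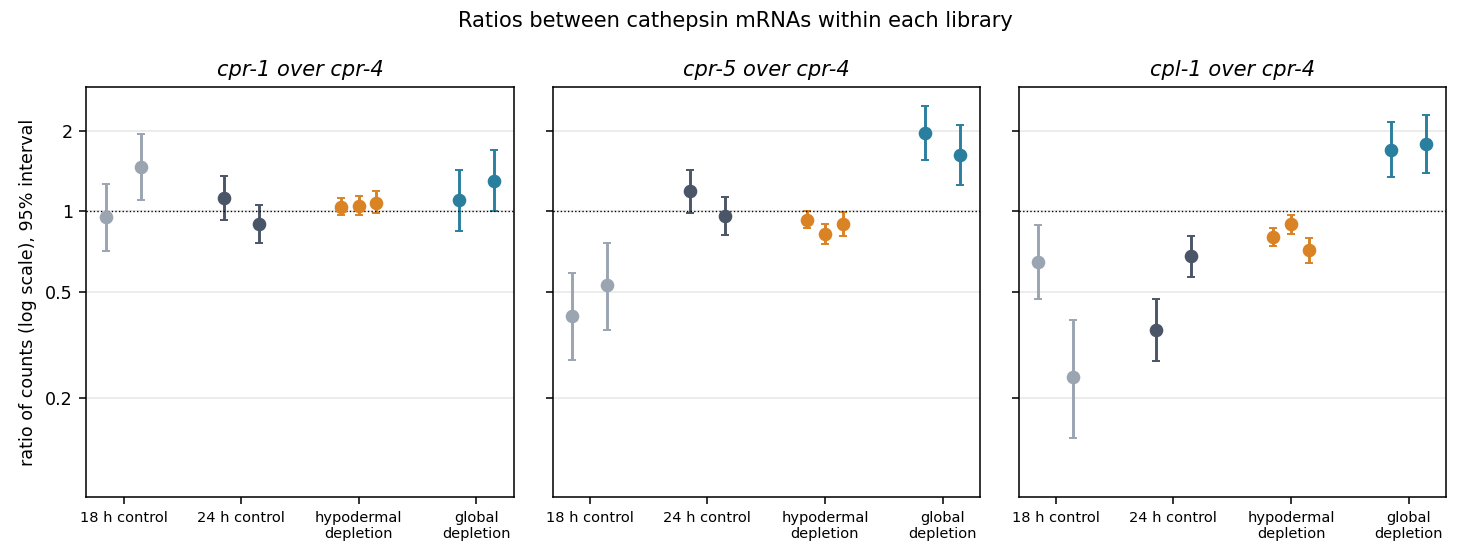
Ratios of counts (log scale, bars are exact binomial 95% intervals) of cpr-1, cpr-5 and cpl-1 to cpr-4 in each library of the 4 groups. The cpr-1 ratios run from 0.896 to 1.46 over all libraries, while those of cpr-5 run from 0.408 at 18 h to 1.96 in global depletion.

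Profiles were compared by the root mean square difference of log2 CPM over the 9 libraries, each gene centred on its own mean, among 7430 tested genes with at least 10 CPM. The gene nearest to cpr-1 was cpr-4 and the reverse also held, at 0.202, and Y39B6A.1 stood next for both (0.312 and 0.394). No other pair of the 7 was nearer than 0.572 (cpl-1 and cpr-6), and cpr-3 was at least 1.24 from each of the others.

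Genes nearest to cpr-5 were elo-6, drd-5 and pho-11 (0.388 to 0.421), to cpr-6 amt-4, ldp-1 and acn-1 (0.450 to 0.494), to cpl-1 F53A9.8, lipl-5 and mua-3 (0.342 to 0.378), and to cpz-1 T19B10.2, hpo-8 and metr-1 (0.343 to 0.356). The third gene for cpr-1 was trap-2 (0.471) and for cpr-4 pitr-5 (0.408). For cpr-3 the nearest were cept-2, chn-1 and trp-1 (0.466 to 0.478). Nearest to the mean profile of the 7 were ldp-1 (0.213), hach-1, mrp-4, papl-1, Y16B4A.2 and ges-1 (0.345), the last a gut esterase gene used as an intestinal marker.

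Other genes of the family did not share the course. The members were chosen by their fold changes, so this difference was in part set by the choice. The cathepsin Z-like cpz-2, the cathepsin F-like tag-196 and the cathepsin B-like cpr-8 were the further genes with such symbols among those listed, and none passed in either depletion against the 24 h controls. Levels of cpz-2 were 338.5 and 392 CPM under global and 385, 421.5 and 414 CPM under hypodermal depletion, with 430 and 324 CPM for controls at 24 h. Its libraries overlapped in all groups, at -0.04 in global (SE 0.23, edgeR adjusted p = 0.953) and 0.12 in hypodermal depletion (SE 0.21, adjusted p = 0.839). Reads of cpz-2 are uncertain to the extent that it overlaps gcy-34.

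For tag-196 the levels were 98.0 and 130 CPM under global and 106, 99.8 and 53.1 CPM under hypodermal depletion, with 108 and 118.8 CPM for controls at 24 h. Its estimates, which did not pass, were -0.00 in global (SE 0.31, edgeR adjusted p = 0.997) and -0.36 in hypodermal depletion (SE 0.29, adjusted p = 0.568). For cpr-8, which lies 565 bases from cpr-5 on the opposite strand, the estimates were 0.19 (SE 0.60, adjusted p = 0.904) and 0.39 (SE 0.56, adjusted p = 0.801), and it was not listed in 1 library at 18 h. Between the depletions these 3 genes also did not pass, at -0.16 (SE 0.20, adjusted p = 0.843) for cpz-2, 0.36 (SE 0.26, adjusted p = 0.626) for tag-196 and -0.20 (SE 0.46, adjusted p = 0.93) for cpr-8. The choice of members used this contrast, so no support is drawn from these values.

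The paired cathepsin Z-like genes can be read against each other within a library. The ratio of cpz-1 to cpz-2 counts was 0.107 (0.0777 to 0.144) and 0.0659 (0.0440 to 0.0954) under global and 0.159 (0.131 to 0.192), 0.216 (0.178 to 0.261) and 0.156 (0.114 to 0.211) under hypodermal depletion. Controls gave 0.252 (0.168 to 0.369) and 0.503 (0.380 to 0.661) at 24 h and 0.266 (0.156 to 0.435) and 0.155 (0.0676 to 0.315) at 18 h. Both global ratios were below all others, but the interval of global replicate 1 overlapped those of hypodermal replicates 1 and 3, and both global intervals overlapped that of 18 h control replicate 2.

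Cystatins are the natural inhibitors of these proteases, and both worm genes were weakly expressed. The gene cpi-2, known for its role in the germline, read 30.9 and 20.7 CPM under global and 29.4, 41.5 and 32.4 CPM under hypodermal depletion, with 35.0 and 44.3 CPM for controls at 24 h. Neither estimate passed, at -0.63 in global (SE 0.46, edgeR adjusted p = 0.472) and -0.22 in hypodermal depletion (SE 0.42, adjusted p = 0.852), and it overlaps other protein-coding genes. The cystatin gene cpi-1 was listed in the 3 hypodermal libraries alone, at 4.33, 8.71 and 9.06 CPM, and was too low to be tested. In the controls 3 counts stood for 5.92 to 18.0 CPM, so such levels could go unlisted there. In the global libraries 3 counts stood for 2.31 and 2.77 CPM, below all 3 hypodermal levels, and cpi-1 was not listed.

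Aspartyl proteases work beside the cathepsins in gut lysosomes. Of 10 tested genes of 16 on the list, 4 fell and none rose in global depletion (5.02% and 3.43% of all tested genes), with a median of -0.54. In hypodermal depletion 1 fell and 2 rose (3.41% and 1.66% of all tested genes), with a median of -0.21. The largest global falls were of asp-12 (-1.95, SE 0.38, edgeR adjusted p = 0.000304), asp-13 (-1.93, SE 0.46, adjusted p = 0.0032) and asp-6 (-0.71, SE 0.23, adjusted p = 0.0378). The asp-12 call was lost in thinned libraries (adjusted p = 0.0694). The asp-6 call was lost in 10 of 21 settings, including without 24 h control replicate 1 (adjusted p = 0.252), hypodermal replicate 2 (0.0611) or either global library (0.132 and 0.204). In hypodermal depletion asp-12 also fell (-2.34, SE 0.35, edgeR adjusted p = 4.19e-06). The gene asp-13 rose there (1.19, SE 0.36, adjusted p = 0.0397). Its levels were 7.54 and 25 CPM under global and 99.2, 147 and 177 CPM under hypodermal depletion, with 79.6 and 46.3 CPM for controls at 24 h and 34.5 and 18.1 CPM at 18 h. The global libraries overlapped the 18 h controls and no other group. Its hypodermal call was lost in 8 of 21 settings, including without either 24 h control (adjusted p = 0.0639 and 0.468) or hypodermal replicate 2 (0.152) or 3 (0.173). Its global call was lost without 24 h control replicate 1 (adjusted p = 0.0969) or global replicate 1 (0.141).

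Lysosomal membrane proteins and the V-ATPase, the proton pump whose acidity cathepsins need, moved less per gene. The cathepsins, however, were chosen by their fold changes. Of 31 tested membrane and V-ATPase genes of 37, 11 fell and none rose in global depletion (5.02% and 3.43% of all tested genes). In hypodermal depletion none passed, where 3.41% of all tested genes fell and 1.66% rose. Medians of the list were -0.74 in global and -0.26 in hypodermal depletion. The V-ATPase subunit genes vha-13 (-1.30, SE 0.22, edgeR adjusted p = 2.33e-05), vha-12 (-1.16, SE 0.23, adjusted p = 0.000302) and vha-10 (-1.05, SE 0.27, adjusted p = 0.00858) had the largest falls. The vha-10 call was lost in 4 of 21 settings, including without 24 h control replicate 2 (adjusted p = 0.0721) or global replicate 1 (0.247), and that of vha-12 without 24 h control replicate 1 (0.0561). Of 15 tested lysosomal hydrolases and lipases of 23, 1 fell in global depletion, the lipase gene lipl-1 (-2.01, SE 0.55, adjusted p = 0.0119), and none passed in hypodermal depletion, with medians of -0.65 and 0.20. The call of lipl-1 was lost in 5 of 21 settings, including without 24 h control replicate 2 (adjusted p = 0.0837) or either global library (0.101 and 0.0939). Directly between the depletions, 4 of these 15 genes were lower in global depletion and none higher (2.96% and 1.42% of all tested genes), with a median of -0.53. They were the DNase gene nuc-1 (-1.63), gba-4 (-1.87), lipl-5 (-1.86) and lipl-2 (-3.18), named after their values were seen. In the global libraries lipl-2 stood at 2.26 and 2.58 CPM, the floor of 3 counts, against 21.2 to 25.9 CPM in the hypodermal libraries. It was listed in 1 of 2 libraries at each control time, so its value is uncertain. In global against hypodermal depletion 3 of the 31 membrane and V-ATPase genes were lower and 1 higher, and 1 of the 10 aspartyl protease genes was lower, asp-13. These calls between the depletions were not rerun under the alternative settings.

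Intestinal markers moved with the gut cathepsins in part. Of 19 marker names, 1 being the older name opt-2 of pept-1, 17 genes were tested. Of these, 4 fell and 1 rose in global depletion (5.02% and 3.43% of all tested genes). In hypodermal depletion 2 of the markers fell and 1 rose (3.41% and 1.66% of all tested genes). Their summed level was 6454 to 6792 CPM under global and 7041 to 9170 CPM under hypodermal depletion, with 8018 to 10080 CPM for controls at 24 h and 11280 to 13260 CPM at 18 h. The metallothionein gene mtl-2 was not listed in either control group, and ftn-1 was not listed at 18 h. Global libraries were thus lowest in this sum, by a smaller factor than in the sum of the cathepsins, which were chosen by their fold changes. The part of intestinal RNA in the cathepsin result was not tested.

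The largest global changes among those markers were the rise of the P-glycoprotein gene pgp-1 (2.76, SE 0.28, edgeR adjusted p = 2.35e-10) and the falls of the sodium-proton exchanger gene nhx-2 (-2.25, SE 0.43, adjusted p = 0.000256) and the peptide transporter gene pept-1 (-2.0, SE 0.25, adjusted p = 4.65e-08). The peptide transporter, which takes up products of protein digestion, read 185 and 132 CPM under global and 370, 348 and 567 CPM under hypodermal depletion, with 621 and 648 CPM for controls at 24 h. Of the 17 markers, 5 were lower and none higher in global than in hypodermal depletion (2.96% and 1.42% of all tested genes). Among them were pept-1 (-1.42, SE 0.23, edgeR adjusted p = 1.53e-05) and nhx-2 (-1.56, SE 0.38, adjusted p = 0.00706), whose direct calls were likewise not rerun. In contrast pgp-1 also rose in hypodermal depletion (2.70, SE 0.27, adjusted p = 2e-10). The nhx-2 call was lost without 24 h control replicate 1 (-1.61, adjusted p = 0.0571).

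Hypodermis markers bear on cpl-1 and cpz-1, which act in that tissue. Of 12 tested of 13, 1 fell in global depletion, the hemidesmosome gene let-805 (-0.70, SE 0.22, edgeR adjusted p = 0.0289), and none passed in hypodermal depletion. Over all tested genes, 5.02% fell and 3.43% rose in global depletion, and 3.41% fell and 1.66% rose in hypodermal depletion. The let-805 call was lost in 8 of 21 settings, including without 24 h control replicate 2 (adjusted p = 0.185), hypodermal replicate 2 (0.0523) or global replicate 2 (0.311). The list summed to 6630 to 7908 CPM under global and 7373 to 11500 CPM under hypodermal depletion, with 9130 to 11340 CPM for controls at 24 h. Every gene was listed in at least 1 library of each of those groups, and che-14 in 1 library only. Among other tissues, 2 of 10 body wall muscle markers fell in global depletion, mup-2 (-1.0, SE 0.21, adjusted p = 0.000692) and tni-1 (-0.88, SE 0.21, adjusted p = 0.0038), and none of the 10 neuron or 6 tested pharynx markers passed. The tni-1 call was lost without 24 h control replicate 2 (adjusted p = 0.0693) or global replicate 2 (0.0922). Their part in the cpl-1 and cpz-1 results was not tested.

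Regulators of intestinal and lysosomal genes gave similar counts in both depletions. Of 8 tested of 10, 1 fell and 1 rose in each depletion. Over all tested genes, 5.02% fell and 3.43% rose in global depletion, and 3.41% fell and 1.66% rose in hypodermal depletion. The gene mxl-3, a repressor of lysosomal lipases, fell in global (-2.30, SE 0.30, edgeR adjusted p = 1.06e-07) and in hypodermal depletion (-2.56, SE 0.27, adjusted p = 5.66e-10), and the stress response factor gene skn-1 rose in both (0.95, SE 0.25, adjusted p = 0.00954, and 0.91, SE 0.24, adjusted p = 0.0131). Leaving out 24 h control replicate 1 ended both skn-1 calls (adjusted p = 0.205 in global and 0.323 in hypodermal depletion), and the call in global depletion was also lost without either global library (0.0578 and 0.0903). The TFEB homologue hlh-30, an activator of lysosomal genes, was at -0.05 (SE 0.25, adjusted p = 0.94) and -0.14 (SE 0.23, adjusted p = 0.831).

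The intestinal GATA factor gene elt-2 was at or under 20.7 CPM in every library and not listed in 1 library of each control time, with estimates of 0.90 (SE 0.75, edgeR adjusted p = 0.543) and 0.93 (SE 0.71, adjusted p = 0.536). Its partner elt-7 was listed in 4 of 9 libraries. For pqm-1, daf-16 and pha-4, regulators active in the gut, adjusted p lay between 0.488 and 0.909 in both depletions. In global against hypodermal depletion none of the 8 regulators passed, where 2.96% of all tested genes were lower and 1.42% higher.

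**Figure D4:**
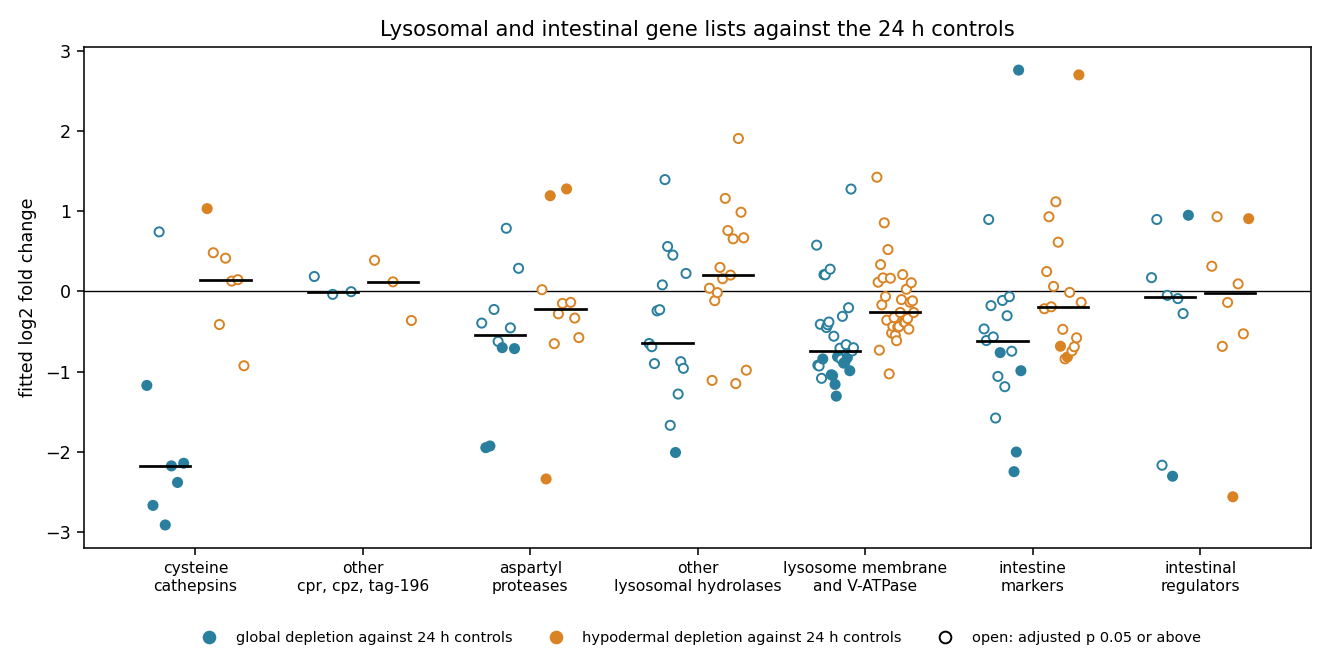
Fitted log2 fold changes (vertical axis) of the tested genes of 7 lists in global and hypodermal depletion against the same 24 h controls; filled points passed edgeR's test, open points did not, and black bars are list medians. The cathepsin median is -2.17 in global and 0.15 in hypodermal depletion, and the other lists have global medians from -0.74 to -0.00. The cathepsins were chosen by their fold changes.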

How the data were processed

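The authors deposited 1 long table of raw read counts on WBcel235, labelled as CDS in its region column, with 1 transcript listed for each gene and no count below 3. It names 10 libraries, of which 9 matched samples by their description label; the other 1 was not used. The submitters' processing notes name DESeq2; aligner, counter and strand setting: not given in the sources used here. Unlisted counts entered as 1. Groups were compared in edgeR 4.0.16 (R 4.3.3) with TMM factors, library sizes set to the listed totals, filterByExpr (minimum count 10, minimum total 15) and glmQLFit (robust) on the 4 group means of the 9 libraries together. Benjamini-Hochberg adjustment covered the 8035 genes tested. The biological coefficient of variation was estimated at 0.203. The SE is the log2 fold change divided by the square root of the F statistic. The fit was tested on simulated data. Coding lengths came from the Ensembl annotation; for cpr-6 and tag-196 another transcript name was used. The members and lists were chosen with earlier results of these data known. The members are named in every comparison, and from each other list up to 3 called genes with the largest global change. Cystatins, regulators, further family genes and the genes with the nearest profiles are named besides. Outside this rule, nuc-1, gba-4, lipl-5 and lipl-2 are named by their values between the depletions. The family list rests on symbols alone, and mtl-2 and ftn-1 are named only as unlisted. No 2 libraries of a group agreed within sampling noise (chi-square per degree of freedom from 2.40 to 7.64). Alternatives covered unlisted counts, scaling, filters, DESeq2 1.42.0, the samples in the fit, the replicate block, thinning, pooled controls and single libraries left out.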

Additional observations from a re-analysis of the deposited data

Results flagged for a closer look

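In 3 of the 7 cathepsin genes every hypodermal library lay above and every global library below both 24 h controls: cpr-1, cpr-4 and cpl-1, with log2 differences between global and hypodermal depletion of -3.15, -3.32 and -2.20. How many of all tested genes split this way was not counted, and the choice of genes favours such a split. No result is therefore read from the count of 3. The difference between the depletions was not tested, since the genes were chosen by it. The aspartyl protease gene asp-13 showed the same split, with a log2 difference of -3.12 (SE 0.37). It is named here because of that split, so no test of the difference is given. Its calls against the 24 h controls were lost in several settings, as given above.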

How the results depend on the processing

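Across 21 alternative settings, the count of cathepsin genes past the threshold in global depletion against the 24 h controls stayed at 5 or 6 of 7. The median difference between the depletions ran from -2.43 to -2.15. In hypodermal depletion against the 24 h controls the count of 1 became 0 with the replicate block. It became 2 in settings that included DESeq2 size factors, only the compared groups fitted and hypodermal replicate 2 left out. The second gene there was cpz-1, which fell while cpl-1 rose. Without 24 h control replicate 1 the estimates were 0.64 for cpl-1 and -1.25 for cpz-1. From 18 h to 24 h the count of 1 became 2 with unlisted counts as 2, with upper-quartile factors, with no filter and in thinned libraries, and ran from 1 to 3 with single libraries left out. In global depletion against 18 h the count of 4 became 2 with unlisted counts as 0, with no filter, by DESeq2's Wald test and with only the compared groups fitted, and ran from 2 to 5 with single libraries left out. For cpr-6 the value of -1.28 ran from -1.85 to 0.19 with single 18 h controls left out, the positive value being without replicate 1. The cause was not tested. Same-numbered libraries had deviations correlated from -0.06 to 0.112 over 12 pairs, and 6 of 8 libraries correlated best with their own number. In groups of 2 libraries the deviations mirror each other, so some pairs repeat. Whether the numbers mark a shared batch cannot be settled from these values. With the block, 269 genes were called in hypodermal depletion against the 24 h controls, and 407 without it. Over all genes, global calls against the 24 h controls ran from 347 to 849 (679), hypodermal calls from 162 to 609 (407) and time calls from 78 to 476 (244); against 18 h they ran from 678 to 1572 (1179) in global and 515 to 1626 (1051) in hypodermal depletion. Of 1734 gene values compared, 60 that passed in neither setting changed sign. With unlisted counts as 0 the median of all genes was 0.362, in place of 0.0286, in hypodermal depletion against 18 h, and 0.308, in place of -0.023, in global depletion against 18 h. Few counts in the controls limit the precision for cpr-3 and for weakly expressed regulators.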
